A study of Mus musculus with 6 samples.

Results

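The *BCL2* family decides in many cells whether mitochondria release the proteins that start apoptosis. Expression of 10 of its genes was examined in bone-marrow-derived macrophages (BMDMs) with and without excess NaCl. The genes were chosen by name, as listed by symbol in the deposited table, and not by their values. Earlier results of these data were known when they were chosen. They comprised 3 pro-survival genes (*Bcl2*, *Bcl2l1*, *Mcl1*), 2 effectors (*Bax*, *Bak1*) and 5 BH3-only genes (*Bid*, *Bad*, *Bcl2l11*, *Bbc3*, *Pmaip1*). All 10 passed the filter on low counts (a summed count of 10 or more), as did 15903 of 57010 genes in the table of raw counts.

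Pro-survival members of the family bind and hold back the death-promoting members on the outer mitochondrial membrane. BH3-only proteins respond to stress, occupy the pro-survival members and in part activate the effectors directly, and the effectors then form pores that release cytochrome c to the apoptosome and the caspases. Macrophages differentiated with M-CSF depend on that growth factor for survival, and several family proteins are controlled by phosphorylation, cleavage or rapid turnover, which RNA levels do not measure.

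BMDMs are obtained by culturing bone marrow with M-CSF, under which its progenitors become macrophages. Marrow came from 3 Cx3cr1GFP mice on the C57BL/6J background, in which GFP sequence occupies the *Cx3cr1* locus, and was cultured with 10 ng/ml M-CSF for 7 days. Cells of each mouse were left unstimulated (control, n = 3) or received 62 mM additional NaCl for 24 h (NaCl, n = 3), so all libraries share the genotype, strain, growth factor and culture time, and no osmolarity control was sequenced. Cells that floated were discarded before RNA was taken, so the libraries hold adherent cells, and the ages and sexes of the mice were not given in the sources used here.

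Reads counted on genes numbered between 8520433 and 20123570 in the control libraries and between 4088065 and 11610020 in the NaCl libraries. NaCl replicate 3 was the shallowest, with no count for 1235 of the genes tested, against 79 to 309 in the other libraries. Mitochondrial genes took 1.28% to 1.82% of the counts. All 10 macrophage markers were detected, with a summed level of 18687 to 20705 CPM (counts scaled to a common library size by edgeR) in control and 28328 to 35114 CPM in NaCl. Neutrophil markers summed to 270 to 569 CPM in control and 294 to 411 CPM in NaCl, and monocyte markers to 232 to 307 CPM and 254 to 368 CPM. The lymphocyte markers *Cd3d*, *Cd3e*, *Cd3g*, *Ms4a1*, *Nkg7* and *Trbc2* each had a total count under 10, and *Cd79a* and *Cd79b* summed to 5.25 to 9.66 CPM in control and 2.90 to 10.4 CPM in NaCl. The 8 dendritic cell markers summed to 15.6 to 57.6 CPM over the 6 libraries, and erythroid, mast cell and stromal markers to at most 11.02 CPM. In edgeR with the mouse as block, 3 macrophage markers were higher and 2 lower, 2 neutrophil markers were lower and 1 monocyte marker was higher.

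None of the 10 genes passed the threshold between NaCl-treated and control BMDMs in edgeR's quasi-likelihood test with Benjamini-Hochberg adjustment over all genes tested. The smallest adjusted p was 0.323, and 1 member had an unadjusted p under 0.05. By the same test 0.654% of all genes passed, and 12.6% had an unadjusted p under 0.05. Both libraries of a pair came from the same mouse, and in a fit that takes the mouse as replicate block 1 member, *Bcl2*, was lower in NaCl (adjusted p = 0.0404 in edgeR's quasi-likelihood test). Under that fit 4.3% of all genes were lower, 4.6% were higher and 8.9% passed in either direction. In DESeq2 no member passed, either without the block (1 with an unadjusted p under 0.05), where 3.12% of the 12817 genes that it gave an adjusted p did, or with it (2 with an unadjusted p under 0.05), where 6.96% of 11586 such genes did. Fitted differences were negative for 9 of the 10 members, and their median log2 fold change was -0.20, beside -0.01 for all genes tested. CPM ranges of the 2 groups overlapped for all 10 members, whereas they were separate for 19.0% of all genes. Expression was lower in NaCl in 3 of 3 mice for 5 members (*Bcl2*, *Bcl2l1*, *Mcl1*, *Bax*, *Bcl2l11*), against 23.4% of all genes.

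**Figure D1:**
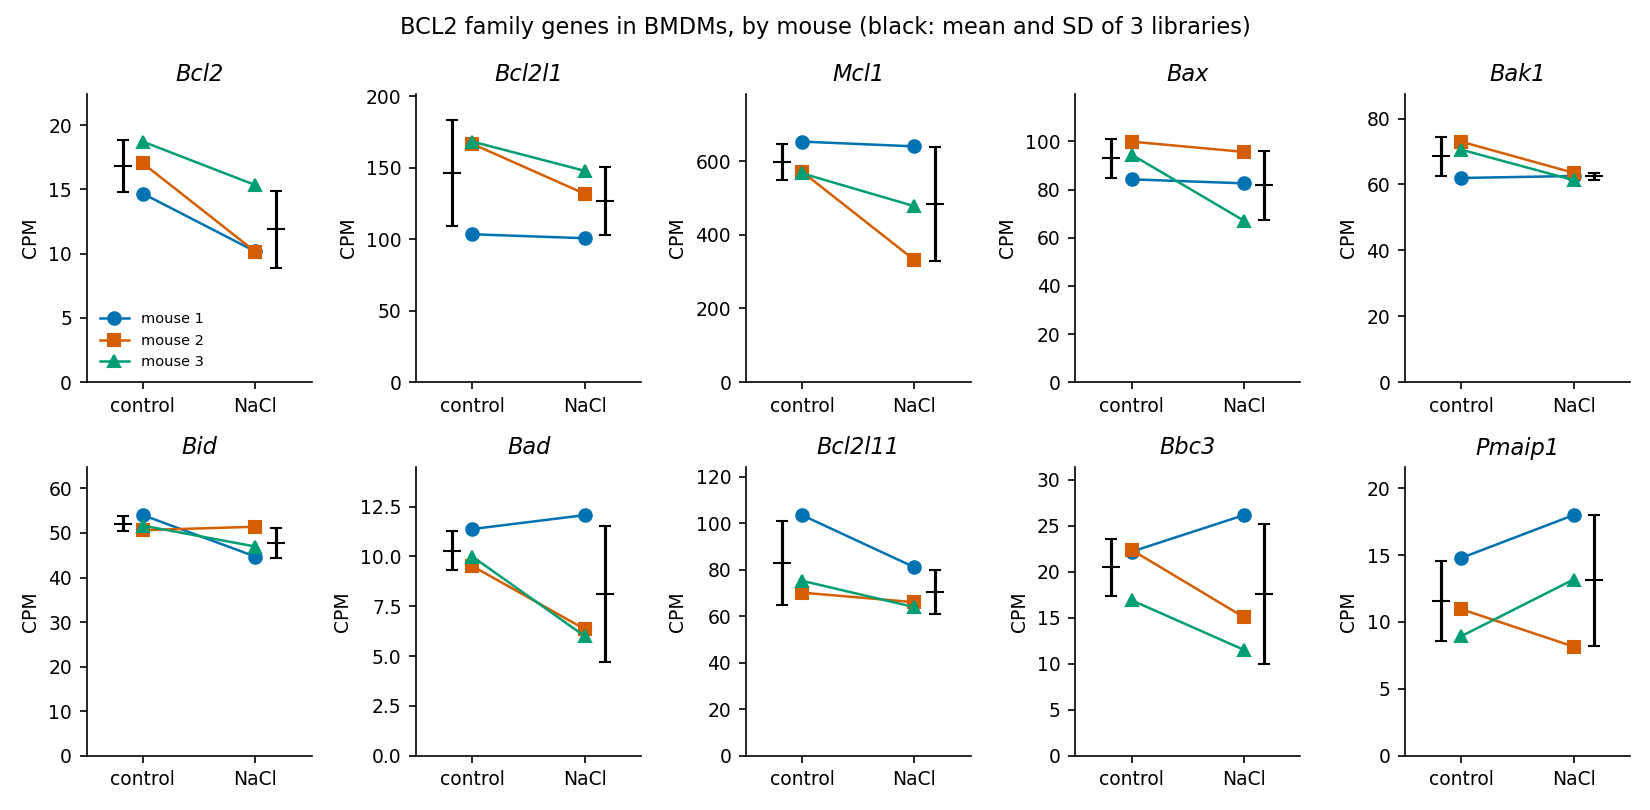
Expression in CPM (y axis, from 0) of the 10 genes in control and NaCl BMDMs, with points joined by mouse and black bars giving mean and SD of 3 libraries. *Bcl2* lay at 14.7 to 18.7 CPM in control and lower along each line in NaCl, at 10.2 to 15.3 CPM, while the lines of *Bbc3* and *Pmaip1* pointed up in some mice and down in others.

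Stretches of promoter are shown for the members whose 250 bases before a RefSeq transcript start held a searched motif, since these members have known regulators that read such letters. RefSeq coordinates are of build GRCm38.p6, and capitals mark the motif. *Pmaip1* was left out of this search, and the other 9 members had 15 starts in all. The first is the *Bcl2* promoter at chr1:106714367-106714422 (minus strand), with the core of a cAMP response element, TGACGT, 107 bases before the start, a motif that 6.46% of 32817 starts hold on either strand. The next are *Bcl2l11* at chr2:128125788-128125842 and *Bbc3* at chr7:16310069-16310125 (both plus strand), with a FOXO element, GTAAACA, or its reverse complement 227 and 167 bases before the start, a motif found at 3.16% of starts. The last is *Bax* at chr7:45467065-45467124 (minus strand), with 1 decamer of the p53 motif 201 bases before the start, found at 7.12% of starts.
*Bcl2*: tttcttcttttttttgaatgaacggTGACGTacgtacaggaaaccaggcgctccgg
*Bcl2l11*: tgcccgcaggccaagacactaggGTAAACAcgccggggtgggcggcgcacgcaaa
*Bbc3*: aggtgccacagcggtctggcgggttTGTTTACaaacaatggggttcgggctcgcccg
*Bax*: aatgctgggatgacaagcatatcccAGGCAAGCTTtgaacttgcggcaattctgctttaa
The letters of an ATF4 element, TGATGNAA (3.45% of starts), and of the NFAT5 core, TGGAAA (18.6% of starts), were in none of the 15 windows. A match describes letters in a short window and does not show that a factor binds there.

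*Bcl2* (ENSMUSG00000057329.8, chromosome 1) encodes the founding pro-survival protein of the family. In control BMDMs its expression was 14.7, 17.0 and 18.7 CPM for mice 1, 2 and 3, and in NaCl-treated BMDMs it was 10.2, 10.2 and 15.3 CPM. Each NaCl library lay below the control library of its mouse, although NaCl replicate 3 lay above control replicate 1, so the groups overlapped. Its log2 fold change was -0.54 ± 0.21 (SE, n = 3 per group, 95% interval -0.997 to -0.076, adjusted p = 0.323, edgeR). With the mouse block it was -0.53 ± 0.16 (SE, 95% interval -0.86 to -0.19, adjusted p = 0.0404, edgeR). The log2 ratios within mice 1, 2 and 3 were -0.53, -0.75 and -0.29.

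The call of *Bcl2* rested on that single fit. DESeq2 with the block gave an adjusted p of 0.210, and the edgeR block fit without mouse 1, 2 or 3 gave adjusted p-values of 0.195, 0.158 and 0.0687. With all libraries thinned to the depth of NaCl replicate 3, the edgeR block fit gave 0.126. The counts behind these values were 64 to 371 per library, the direction was negative in each of the 20 alternatives run, and 6.09% of the exon bases of *Bcl2* overlap *D630008O14Rik* on the opposite strand, which reads counted without strand cannot separate. Lymphocytes express *Bcl2*, and *Cd79a* and *Cd79b*, the lymphocyte markers tested, summed to at most 10.4 CPM in any library, with overlapping groups; their part in the value of *Bcl2* was not tested.

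Across all 6 libraries, the expression patterns most like that of *Bcl2* were those of *Cpeb2*, *Zc3h12c* and *Zdhhc21* among 9923 genes with a mean of at least 50 counts. Root mean square differences of centred log2 CPM from *Bcl2* were 0.05 for *Cpeb2*, 0.05 for *Zc3h12c* and 0.06 for *Zdhhc21*. These genes were chosen for this likeness, and all points share the same 6 libraries, so it has no p-value. *Cpeb2* encodes a cytoplasmic polyadenylation element binding protein, *Zc3h12c* a CCCH zinc finger protein and *Zdhhc21* a palmitoyltransferase.

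*Bcl2l1* (ENSMUSG00000007659.19, chromosome 2) encodes the pro-survival BCL-XL and, by splicing, the shorter death-promoting BCL-XS, which counts per gene do not separate. Its expression was 103, 167 and 168 CPM in control and 101, 132 and 148 CPM in NaCl. The mouse 1 libraries were the lowest of both groups, and the groups overlapped. The log2 fold change was -0.21 ± 0.21 (SE, 95% interval -0.68 to 0.26, adjusted p = 0.729, edgeR). With the mouse block it was -0.19 ± 0.12 (SE, 95% interval -0.43 to 0.05, adjusted p = 0.371, edgeR).

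*Mcl1* (ENSMUSG00000038612.17, chromosome 3) encodes a short-lived pro-survival protein on which many myeloid cells depend. Its expression was 653, 571 and 567 CPM in control and 640, 331 and 477 CPM in NaCl. Mouse 1 hardly differed between treatments, with a log2 ratio of -0.03, whereas mouse 2 had a ratio of -0.79 and mouse 3 of -0.25. The log2 fold change was -0.31 ± 0.21 (SE, 95% interval -0.78 to 0.17, adjusted p = 0.607, edgeR), and with the mouse block it was -0.35 ± 0.13 (SE, 95% interval -0.62 to -0.08, adjusted p = 0.0954, edgeR). Over the 20 alternatives the value lay between -0.56 and -0.09 and never passed the threshold.

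**Figure D2:**
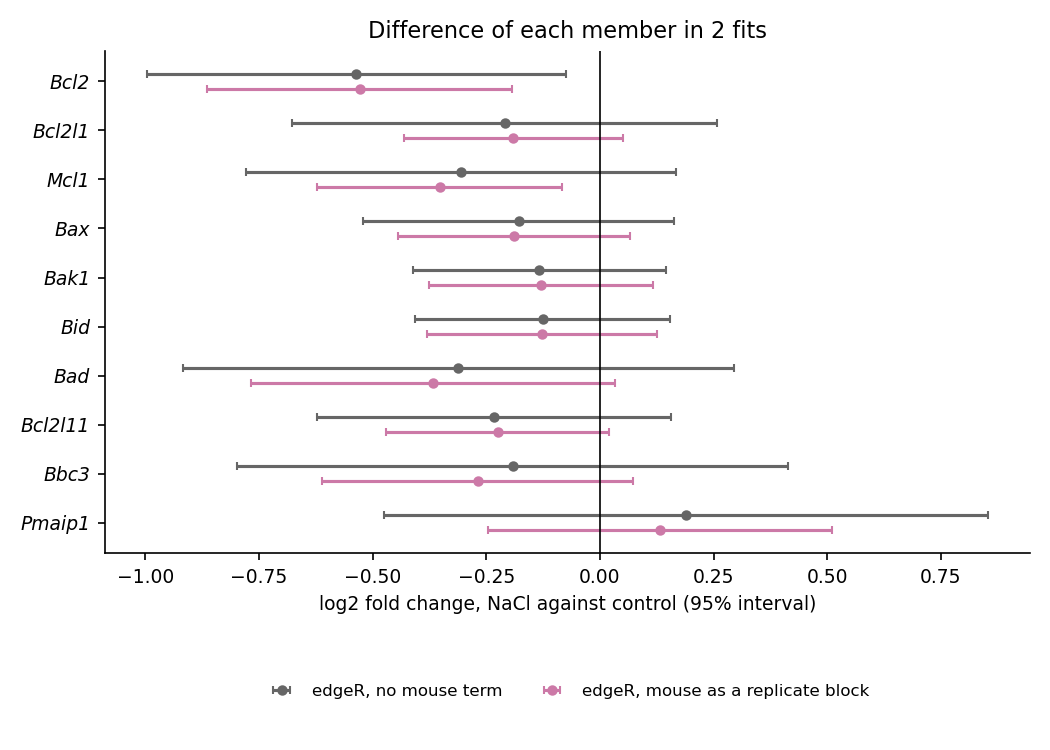
Log2 fold change of NaCl against control (x axis) for the 10 genes, with 95% intervals, from edgeR without a mouse term (grey) and with the mouse block (pink). The intervals of *Bcl2* lay below 0 in both fits and that of *Mcl1* with the block only, while the other 8 genes had intervals that included 0 in both.

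*Bax* (ENSMUSG00000003873.12, chromosome 7) and *Bak1* (ENSMUSG00000057789.15, chromosome 17) encode the pore-forming effectors. *Bax* was at 84.3, 99.9 and 94.5 CPM in control and at 82.6, 95.6 and 67.1 CPM in NaCl. Its largest difference was in mouse 3, with a log2 ratio of -0.495, against -0.03 and -0.06 in mice 1 and 2. *Bak1* was at 62.0, 73.0 and 70.6 CPM in control and at 62.6, 63.5 and 61.3 CPM in NaCl. In CPM, though not per length, its spread under NaCl was the narrowest of any member (62.5 ± 1.11, SD). The log2 fold changes were -0.18 ± 0.15 for *Bax* (SE, 95% interval -0.52 to 0.16, adjusted p = 0.679, edgeR) and -0.13 ± 0.12 for *Bak1* (SE, 95% interval -0.41 to 0.14, adjusted p = 0.712, edgeR). With the mouse block that of *Bax* was -0.19 ± 0.12 (SE, 95% interval -0.44 to 0.07, adjusted p = 0.409, edgeR). For *Bak1* the block gave -0.13 ± 0.12 (SE, 95% interval -0.38 to 0.12, adjusted p = 0.593, edgeR). Reads on 12.2% of the exon bases of *Bax*, shared with *Gm45808*, and on 25.5% of those of *Bak1*, shared with *Ggnbp1*, could not be assigned to 1 gene by position alone.

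Among the BH3-only genes, *Bid* (ENSMUSG00000004446.13, chromosome 6) encodes the protein that caspase-8 cleaves to link death receptors to mitochondria. Its expression was 54.0, 50.6 and 51.7 CPM in control and 44.7, 51.4 and 47.0 CPM in NaCl. NaCl replicate 2 lay inside the control range, and the other 2 NaCl libraries lay under it. The log2 fold change was -0.13 ± 0.13 (SE, 95% interval -0.41 to 0.15, adjusted p = 0.730, edgeR), and 17.7% of its exon bases overlap *Bcl2l13*. With the mouse block the log2 fold change was -0.13 ± 0.12 (SE, 95% interval -0.38 to 0.13, adjusted p = 0.614, edgeR).

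*Bad* (ENSMUSG00000024959.15, chromosome 19) encodes a BH3-only protein that growth factor signalling silences by phosphorylation. Its expression was 11.4, 9.51 and 9.99 CPM in control and 12.1, 6.35 and 5.99 CPM in NaCl. NaCl replicate 1 was the highest of all 6 libraries and the other 2 NaCl libraries were the lowest, on 25 counts in NaCl replicate 3. The log2 fold change was -0.31 ± 0.27 (SE, 95% interval -0.92 to 0.29, adjusted p = 0.686, edgeR). It was -0.73 without NaCl replicate 1 and -0.12 without NaCl replicate 2, without passing the threshold in either fit. With the mouse block and all libraries the log2 fold change was -0.37 ± 0.19 (SE, 95% interval -0.77 to 0.03, adjusted p = 0.278, edgeR). *Gpr137* overlaps 20.5% of its exon bases.

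*Bcl2l11* (ENSMUSG00000027381.17, chromosome 2) encodes BIM, a BH3-only protein that rises in many blood cells after growth factor loss. Its expression was 104, 70.2 and 75.3 CPM in control and 81.1, 66.1 and 64.0 CPM in NaCl. Mouse 1 was the highest in both groups, and the value was lower with NaCl in 3 of 3 mice, with log2 ratios of -0.35, -0.09 and -0.24. The log2 fold change was -0.23 ± 0.17 (SE, 95% interval -0.62 to 0.16, adjusted p = 0.636, edgeR). With the mouse block it was -0.23 ± 0.12 (SE, 95% interval -0.47 to 0.02, adjusted p = 0.278, edgeR).

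*Bbc3* (ENSMUSG00000002083.14, chromosome 7), which encodes the p53 target PUMA, was at 22.2, 22.4 and 16.9 CPM in control and at 26.1, 15.0 and 11.5 CPM in NaCl. It was higher with NaCl in mouse 1 and lower in mice 2 and 3. *Pmaip1* (ENSMUSG00000024521.9, chromosome 18), which encodes the MCL1 antagonist NOXA, was at 14.8, 10.96 and 8.93 CPM in control and at 18.0, 8.16 and 13.2 CPM in NaCl. It was higher with NaCl in mice 1 and 3 and lower in mouse 2. Neither passed the test (log2 fold change -0.19 ± 0.27 (SE) with a 95% interval of -0.80 to 0.41 and adjusted p = 0.823 for *Bbc3*, and 0.19 ± 0.30 (SE) with a 95% interval of -0.48 to 0.85 and adjusted p = 0.847 for *Pmaip1*, edgeR). With the mouse block *Bbc3* was at -0.27 ± 0.17 (SE, 95% interval -0.61 to 0.07, adjusted p = 0.375, edgeR). For *Pmaip1* the block gave 0.13 ± 0.18 (SE, 95% interval -0.25 to 0.51, adjusted p = 0.749, edgeR). *Bbc3*, *Bad* and *Pmaip1* had the widest intervals among the members, and these include changes in either direction.

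Levels were compared between genes only per length, as reads per kilobase of exon scaled to the same total in each library (TPM). *Mcl1* had the highest level, 626 ± 76.5 TPM in control and 500 ± 189 TPM in NaCl (SD, n = 3), which puts its mean at the 98.6th percentile of genes with a length. *Bax* followed with 210 ± 10.1 and 179 ± 21.2 TPM, then *Bcl2l1* with 113 ± 25.02 and 96.1 ± 19.1 TPM and *Bak1* with 102 ± 4.72 and 90.4 ± 6.07 TPM. *Bcl2* had the lowest level of the 10, 6.55 ± 0.605 TPM in control and 4.55 ± 1.36 TPM in NaCl, at the 36.6th percentile.

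Between these lay *Bid* (52.5 ± 3.87 and 46.6 ± 1.30 TPM), *Bcl2l11* (37.2 ± 9.66 and 30.6 ± 5.62 TPM), *Bbc3* (34.5 ± 5.80 and 29.0 ± 13.9 TPM), *Pmaip1* (15.2 ± 4.51 and 17.0 ± 7.32 TPM) and *Bad* (14.4 ± 1.95 and 11.2 ± 5.23 TPM). *Bcl2l1* and *Bak1*, *Bcl2l11* and *Bbc3*, and *Pmaip1* and *Bad* overlapped in both groups and have no order between them, and *Bbc3* and *Pmaip1* overlapped in NaCl. *Mcl1*, *Bax*, *Bid* and *Bcl2* were separate from their neighbours in both groups. On this scale 3 members, *Bax*, *Bak1* and *Bid*, were lower in every NaCl library than in every control library, against 11.2% of the 15486 genes with a length. The CPM ranges of these 3 genes overlapped, and the median log2 ratio of mean TPM over all genes was -0.05.

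**Figure D3:**
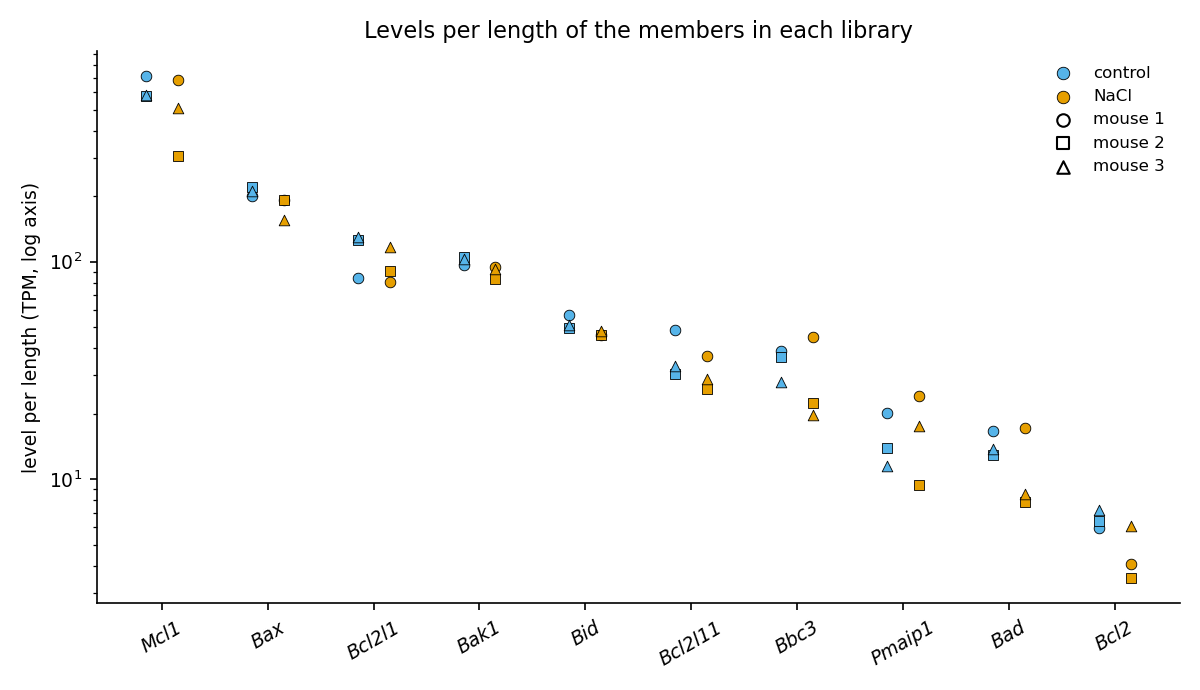
Level in TPM (y axis, log scale) of the 10 genes in each library, ordered by the control mean, with colour for treatment and symbol for mouse. Levels spanned from 714 TPM for *Mcl1* in control replicate 1 to 3.51 TPM for *Bcl2* in NaCl replicate 2.

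The 10 transcripts summed to 1211 ± 61.1 TPM in control and 1005 ± 218 TPM in NaCl (SD, n = 3). The pro-survival genes *Bcl2*, *Bcl2l1* and *Mcl1* held 62.8%, 60.3% and 61.4% of this sum in the control libraries and 62.8%, 50.9% and 63.0% in the NaCl libraries. Their share was lowest in NaCl replicate 2, and there *Mcl1* alone held 38.9%, against 49.1% to 55.9% in the other 5 libraries. The group means were 61.5 ± 1.22% and 58.9 ± 6.94% (SD), a difference smaller than the spread among NaCl libraries. *Bax* and *Bak1* held 25.8 ± 2.38% in control and 27.7 ± 6.33% in NaCl, and the BH3-only genes 12.7 ± 1.28% and 13.4 ± 1.01%.

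Ratios between opposing members did not part the groups either. The log2 ratio of *Mcl1* to *Bcl2l11* in TPM was 3.89, 4.26 and 4.14 in control and 4.21, 3.56 and 4.13 in NaCl. For *Bcl2l1* to *Bax* it was -1.24, -0.80 and -0.71 in control and -1.26, -1.08 and -0.40 in NaCl. For *Bcl2* to *Bax* it was -5.06, -5.09 and -4.88 in control and -5.56, -5.77 and -4.67 in NaCl, lower with NaCl in mice 1 and 2 and higher in mouse 3. RNA of bulk cultures cannot tell fewer cells with a transcript from less transcript per cell.

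**Figure D4:**
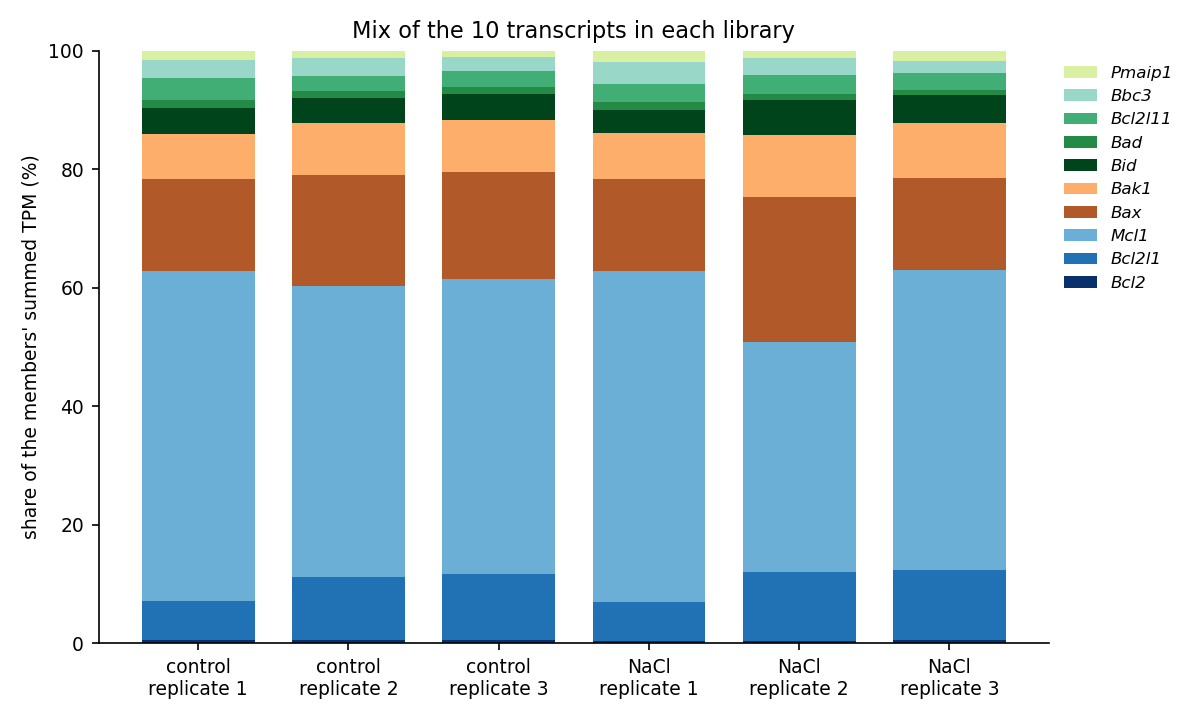
Share (%) of the summed TPM of the 10 genes held by each gene in each of the 6 libraries, with pro-survival genes in blue, effectors in brown and orange and BH3-only genes in green. The blue part reached 50.9% in NaCl replicate 2 and 60.3% to 63.0% in the other libraries.

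Other genes of the pathway were examined as lists by role, and none of the 94 genes tested in 6 lists passed edgeR's test without the block, where 18 had an unadjusted p under 0.05. DESeq2 without the block called 5 of them, and edgeR with the block called 14. Over all genes, these 2 fits called 3.12% and 8.9%. Without the block, 12.6% of all genes had an unadjusted p under 0.05 in edgeR. Of 11 tested genes among 15 other *BCL2* family genes, 1 was higher and 2 were lower with the block (5 had an unadjusted p under 0.05 without it, and 2 were lower in DESeq2). Their median log2 fold change was -0.40 without the block, beside -0.01 for all genes. That median is the value of *Bcl2a1a*, which had 1 to 9 counts per library. *Bok* and *Bik* also had few counts, 2 to 19 and 0 to 6 per library. *Bmf*, which encodes a BH3-only protein tied to the cytoskeleton, was at 25.7, 9.69 and 9.99 CPM in control and at 45.8, 27.3 and 26.6 CPM in NaCl. Within each mouse it was higher with NaCl, by log2 ratios of 0.83, 1.49 and 1.41, although the NaCl libraries of mice 2 and 3 were only just above control replicate 1. Its log2 fold change with the block was 1.22 ± 0.15 (SE, adjusted p = 4.86e-06, edgeR), against an adjusted p of 0.238 without it.

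*Bnip3*, a hypoxia-responsive gene of mitophagy and cell death, was at 15.7, 22.4 and 20.4 CPM in control and at 11.8, 6.35 and 7.43 CPM in NaCl, without overlap. Its log2 fold change with the block was -1.20 ± 0.20 (SE, adjusted p = 0.000257, edgeR), and DESeq2 without a block also called it (adjusted p = 0.00262). *Bcl2a1b*, a pro-survival gene of the A1 group, was at 16.5, 20.8 and 18.9 CPM in control and at 9.61, 9.61 and 12.5 CPM in NaCl, again without overlap, with a log2 fold change of -0.85 ± 0.17 with the block (SE, adjusted p = 0.00112, edgeR). The A1 genes are near-identical copies, 68.4% of the 75-base windows of *Bcl2a1b* occur in other genes and 34.4% of those of *Bnip3* do, so both values are uncertain. Neutrophils also express A1 genes, and although the summed neutrophil markers overlapped between groups, 2 of the 11 were lower with the mouse block, as *Bcl2a1b* was. Their part in the A1 values was not tested.

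The p53 list, 16 tested of 17 genes, held the most calls of the 6 lists in edgeR with the block, 2 higher and 5 lower. These were 12.5% and 31.25% of the genes tested, beside 4.6% and 4.3% of all genes. Without the block, 7 genes had an unadjusted p under 0.05 in edgeR, and DESeq2 called 1 gene, which was lower. The median log2 fold change of the list without the block was -0.35. The lower genes were *Cdkn1a*, *Ccng1*, *Phlda3*, *Trp53inp1* and *Gdf15*. *Cdkn1a*, the cell cycle inhibitor p21, was at 293, 313 and 355 CPM in control and at 222, 197 and 206 CPM in NaCl. The groups were separate, and its log2 fold change with the block was -0.61 ± 0.12 (SE, adjusted p = 0.00102, edgeR), and DESeq2 called it without a block (adjusted p = 0.00272). *Ccng1*, a cyclin induced by p53, was at 176, 181 and 188 CPM in control and at 138, 68.7 and 126 CPM in NaCl, with -0.77 ± 0.15 (SE, adjusted p = 0.000887, edgeR with the block), and -0.45 when mouse 2 was left out.

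*Phlda3*, an inhibitor of AKT, had a log2 fold change of -0.66 (adjusted p = 0.00673, edgeR with the block), *Trp53inp1*, a p53-induced nuclear protein, -0.71 (adjusted p = 0.000801) and *Gdf15*, a stress-induced cytokine, -0.68 (adjusted p = 0.0170). *Trp53inp1* varied widely between mice, and without the block its adjusted p was 0.611 in edgeR and 0.784 in DESeq2, with a log2 fold change between -1.32 and -0.08 when single libraries were left out. The calls of *Phlda3* and *Gdf15* were lost without mouse 3, with adjusted p-values of 0.156 and 0.236. The higher genes were *Btg2*, an inhibitor of proliferation, with 1.03 (adjusted p = 1.40e-05), and *Gtse1*, a mitotic gene that restrains p53, with 0.46 (adjusted p = 0.0258). *Gtse1* was lost without mouse 1 (adjusted p = 0.0919) and without mouse 3 (adjusted p = 0.148). The CPM ranges of *Btg2* overlapped between groups, and without the block its adjusted p was 0.352 in edgeR and 0.175 in DESeq2. Of the p53 genes called by edgeR with the block, DESeq2 with the block called all but *Gdf15* (adjusted p = 0.0684) and *Gtse1* (adjusted p = 0.0905). *Bax*, *Bbc3* and *Pmaip1*, which are among the genes that p53 is known to induce, did not pass with or without the block.

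**Figure D5:**
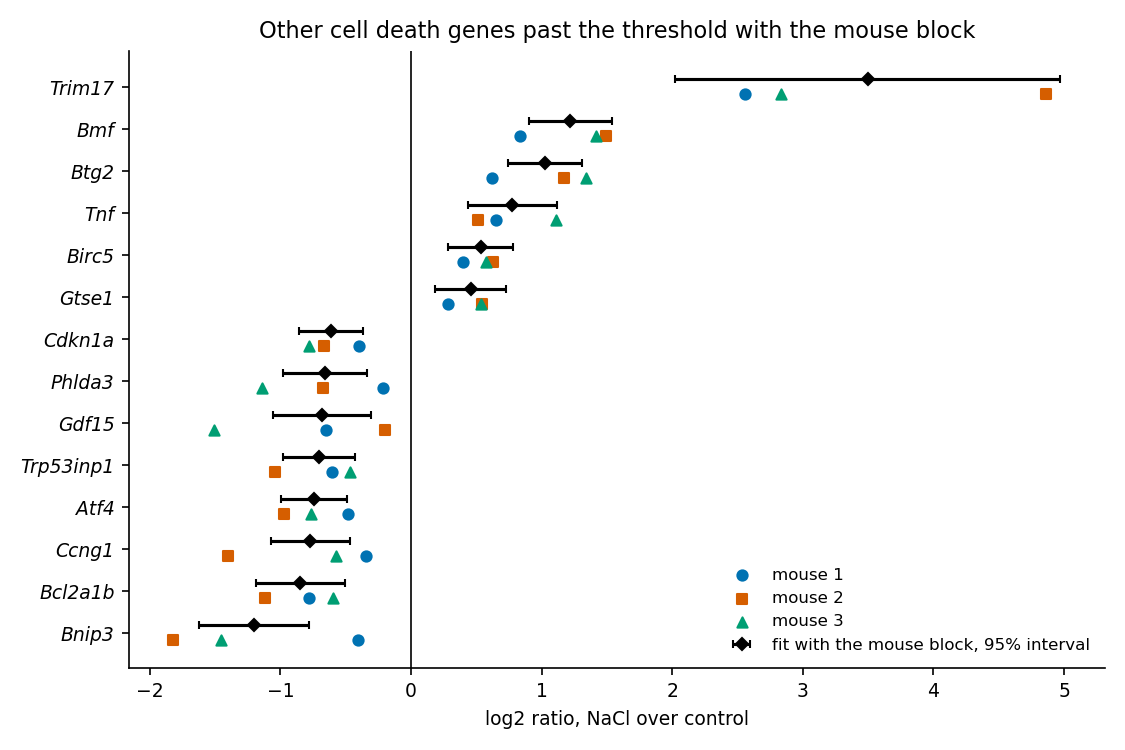
Log2 ratio of NaCl over control (x axis) for the 14 other cell death genes past the threshold with the mouse block, with coloured symbols for the ratio within each mouse and black diamonds with 95% intervals for the edgeR fit. Each gene had the same sign in 3 of 3 mice, 6 above and 8 below 0.

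In each of the remaining 4 lists 1 gene passed with the block. This was 4.55% to 8.33% of the genes tested per list, beside 8.9% of all genes in either direction. The median log2 fold changes of these lists without the block lay between -0.06 and 0.11. *Birc5* (survivin), an inhibitor of apoptosis that is also part of the mitotic machinery, was the only one of 21 apoptosome, caspase and caspase inhibitor genes, at 53.7, 39.5 and 49.2 CPM in control and 70.8, 61.0 and 73.3 CPM in NaCl. Its log2 fold change was 0.53 ± 0.12 (SE, adjusted p = 0.00459, edgeR with the block). *Tnf* was the only one of 12 tested death receptor and necroptosis genes, at 9.66, 8.88 and 13.6 CPM in control and 15.2, 12.7 and 29.5 CPM in NaCl, with 0.78 ± 0.17 (SE, adjusted p = 0.00280, edgeR with the block). The groups overlapped, and without mouse 3 its call was lost (adjusted p = 0.103).

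*Atf4*, a transcription factor of the integrated stress response, was the only one of 12 tested regulators of BH3-only genes, at 200, 289 and 304 CPM in control and 143, 147 and 179 CPM in NaCl. The groups were separate, with -0.74 ± 0.12 (SE, adjusted p = 0.000170, edgeR with the block), and DESeq2 without a block called it (adjusted p = 0.00981). *Trim17*, a ubiquitin ligase reported to act on MCL1, was the only one of 22 partner and turnover genes, on 1 to 29 counts per library. Its adjusted p was 0.00186 in edgeR with the block, 0.0147 in DESeq2 without it and 0.234 in the edgeR block fit when mouse 2 was left out, and 18.4% of its 75-base windows occur in other genes. Caspases, *Apaf1*, *Cycs* and the death receptors had no call in either direction in edgeR with or without the block.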

How the data were processed

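RNA of BMDMs from 3 mice, each as control and with NaCl, gave 6 libraries. Per the labels and the methods, polyadenylated RNA was sequenced as 75-base single-end reads without strand information, trimmed with fastp 0.20.0 and aligned with STAR 2.7.10b, whose gene counting leaves out reads that map to several places or overlap several genes. The authors deposited raw counts per gene, used here for all values, and a normalized signal, in which each count is divided by the library's DESeq2 size factor, used here only for gene symbols. The methods name mm10 with an annotation release of another build, so genes are placed by chromosome only, and promoter coordinates are those of RefSeq.

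The main test was the quasi-likelihood test of edgeR 4.0.16 (TMM, NaCl against control, no further term) on genes whose counts summed to 10 or more, adjusted by Benjamini-Hochberg over 15903 genes at a threshold of 0.05. CPM used TMM-scaled library sizes. TPM used exon unions of GENCODE M21, found for 15486 of the genes tested (97.4%) and for all 10 members. Depth ranged from 4088065 to 20123570 counts per library. Without the block the standard errors hold both counting error and the spread between mice. With the block, differences in level between mice are taken out of them.

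Mouse numbers pair the libraries, since by their labels each mouse gave 1 control and 1 NaCl library. Across genes, the correlation of deviations from the group mean was 0.43 between the libraries of mouse 1, 0.15 for mouse 2 and 0.22 for mouse 3, and it lay between -0.35 and 0.12 for libraries of different mice. It has no p-value, since genes are not replicates. The labels name separate mice as replicates.

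The members, gene lists, marker lists and tests were chosen with earlier results of these data known. All members were named, and of the lists the genes past the threshold without or with the block, at most 5 per direction and list, together with the 3 genes most like a called member. Alternatives were DESeq2 1.42.0, the mouse as a replicate block in edgeR and DESeq2, scaling by median ratios or totals, filters by filterByExpr or at a summed count of 1, edgeR's likelihood ratio test, voom (limma 3.58.1), thinning, leaving out each library or mouse, and other gene lengths. The fits were checked on simulated data with changes larger than any fitted for the members, so that check does not cover differences of the members' size. R 4.3.3 and Python 3.11.15 with pandas 2.3.3, numpy 2.4.6 and matplotlib 3.10.9 were used.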

Additional observations from a re-analysis of the deposited data

How the results depend on the processing

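Over the 20 alternatives per member, no member was called in 19 and 1 (*Bcl2*, lower) in edgeR with the replicate block, which changed no other call of a member. Of the 200 fold changes recomputed, 3 changed sign, all with leave-one-out: that of *Bbc3* was 0.0087 without NaCl replicate 3 (range -0.59 to 0.0087 with single libraries or mice left out), and that of *Pmaip1* was -0.15 without NaCl replicate 1 and -0.04 in the replicate block without mouse 3 (range -0.15 to 0.47). The other members kept their sign, at -0.41 to -0.07 for *Bcl2l1*, -0.31 to -0.04 for *Bax*, -0.73 to -0.12 for *Bad* and -0.35 to -0.05 for *Bcl2l11* over the alternatives. Among all genes, the main test used here, edgeR without the block, called 76 higher and 28 lower. With the replicate block, edgeR called 732 higher and 684 lower. DESeq2 called 245 higher and 155 lower without the block, and 452 higher and 354 lower with it. When the filter was set at a summed count of 1, 362 genes were higher and 300 lower. The likelihood ratio test called 267 higher and 196 lower. After thinning, 49 genes were higher and 19 lower without the block, against 495 higher and 380 lower with it. Leaving out 1 library from edgeR without the block gave 8 to 129 higher and 0 to 54 lower genes. Leaving out 1 mouse from edgeR with the block gave 442 to 697 higher and 343 to 669 lower genes. The share of the members' summed TPM held by *Bcl2*, *Bcl2l1* and *Mcl1* in control was 57.4% with the longest transcript as the length and 57.8% with exon bases of no other gene, the latter chosen after seeing the data, against 61.5%. With the longest transcript, *Bcl2l1* was at 154 TPM and *Bak1* at 78.0 TPM in control, and with exon bases of no other gene at 108 TPM and 130 TPM, so their order follows the length used. The lowest counts of *Bad*, *Bbc3* and *Pmaip1* were 25, 48 and 55, in NaCl replicate 3.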
